A study of Homo sapiens with 18 samples.

Results

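The constitutive HSP70, HSP90 and HSP60 chaperone machinery was followed through 10 genes across the doses of JIB-04 in 2 human lymphoma cell lines. The 10 genes, of 23686 in the deposited tables, were taken by symbol: HSPA8, DNAJA1 and HSPH1 of the HSP70 system, HSP90AA1, HSP90AB1, AHSA1, STIP1 and CHORDC1 of the HSP90 system, and HSPD1 and HSPE1 of the mitochondrial HSP60 chaperonin. They were listed with their changes between the dose groups already known, so those changes are described here without p-values. All 10 had a row in the tables of both lines and all 10 passed the filter on low counts in both lines.

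OCI-Ly1 and TMD8 are lines from diffuse large B-cell lymphoma, a cancer of mature B cells. Each line had 3 groups of 3 libraries: 0.01% DMSO, which is the vehicle, 150 nM JIB-04, and 500 nM JIB-04, a small molecule that inhibits histone demethylases of the Jumonji family. The libraries were ribosome-depleted RNA sequencing libraries prepared as technical triplicates, so the spread between them may be that of library preparation and not of separate cultures. OCI-Ly1 was kept in IMDM and TMD8 in RPMI 1640, so line and medium changed together, and the labels give no treatment time, no genetic change and no separate clone.

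HSP70 proteins bind exposed hydrophobic stretches of unfolded proteins and release them in cycles of ATP hydrolysis. J-domain proteins such as DNAJA1 deliver the client and start hydrolysis, and HSP110 proteins such as HSPH1 exchange the nucleotide. STIP1, also called HOP, passes clients from HSP70 to HSP90, which completes the folding of many kinases and transcription factors, and AHSA1 speeds its ATPase. HSPD1 forms the folding chamber of mitochondria and HSPE1 its lid. Cells make these proteins without stress, and heat-shock factor 1 (HSF1) raises several of them further through heat-shock elements, which are inverted repeats of the letters GAA.

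The sequences below show where such elements lie near the starts of the 10 genes. They come from RefSeq promoter windows on GRCh38.p14, which run from 250 bases before to 50 after an annotated transcript start. Capitals mark the matched 3-unit element, GAANNTTCNNGAA or TTCNNGAANNTTC, a pair that covers both strands, and overlapping matches were joined. Positions are counted from the start, with +1 as the first transcribed base.
HSPA8 distal: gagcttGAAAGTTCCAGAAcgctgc
HSPA8 proximal: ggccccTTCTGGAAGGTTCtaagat
DNAJA1: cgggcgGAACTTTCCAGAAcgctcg
HSP90AA1: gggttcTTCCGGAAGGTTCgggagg
HSP90AB1 distal: agcaggTTCTGGAAGATTCatgggc
HSP90AB1 proximal: agattgTTCTGGAAGCTTCtggatt
CHORDC1: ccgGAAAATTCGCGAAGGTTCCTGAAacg
HSPD1: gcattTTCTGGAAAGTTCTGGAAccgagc

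A 3-unit element was found for 6 of the 10 genes, in 6 of their 16 windows. Over all windows of the table, 172 of 35116 held one (0.49%), and over gene symbols 166 of 27305 (0.608%). The HSPA8 elements lay at chr11:123062348-123062372 and chr11:123062173-123062197 on the minus strand, 230 and 55 bases before the start, each given with its printed flanks. The 2 HSP90AB1 elements, at chr6:44247772-44247796 and chr6:44247825-44247849 on the plus strand, lay 165 and 112 bases before the last of 3 annotated starts, and no element lay in the windows of the other starts. HSP90AA1 had its element at chr14:102087114-102087138 on the minus strand, 88 bases before the downstream of 2 annotated starts. The DNAJA1 element, at chr9:33025270-33025294 on the plus strand, lay just after the start, from +4 to +16. The longest run belonged to CHORDC1, at chr11:90223084-90223112 on the minus strand, where 23 bases hold 3 overlapping elements. The HSPD1 element, at chr2:197500062-197500090 on the minus strand, lay 245 bases before the HSPD1 start that is 539 bases from the HSPE1 start. No element lay in the window of the other HSPD1 start, which is 105 bases from that of HSPE1. The HSPD1 element overlaps exons annotated in GENCODE for both HSPD1 and HSPE1, which are transcribed away from each other. With their printed flanks, the elements of HSPA8, DNAJA1, HSP90AA1 and CHORDC1 also overlap annotated exons, each of its own gene. Those of HSP90AB1 overlap no annotated exon.

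STIP1 had only the shorter 2-unit element, GAANNTTC or TTCNNGAA, which lies inside each 3-unit element and was found in 13.5% of all windows. AHSA1, HSPE1 and HSPH1 had neither in these windows. The matched letters are a description of the sequence and no measure of binding.

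**Figure D1:**
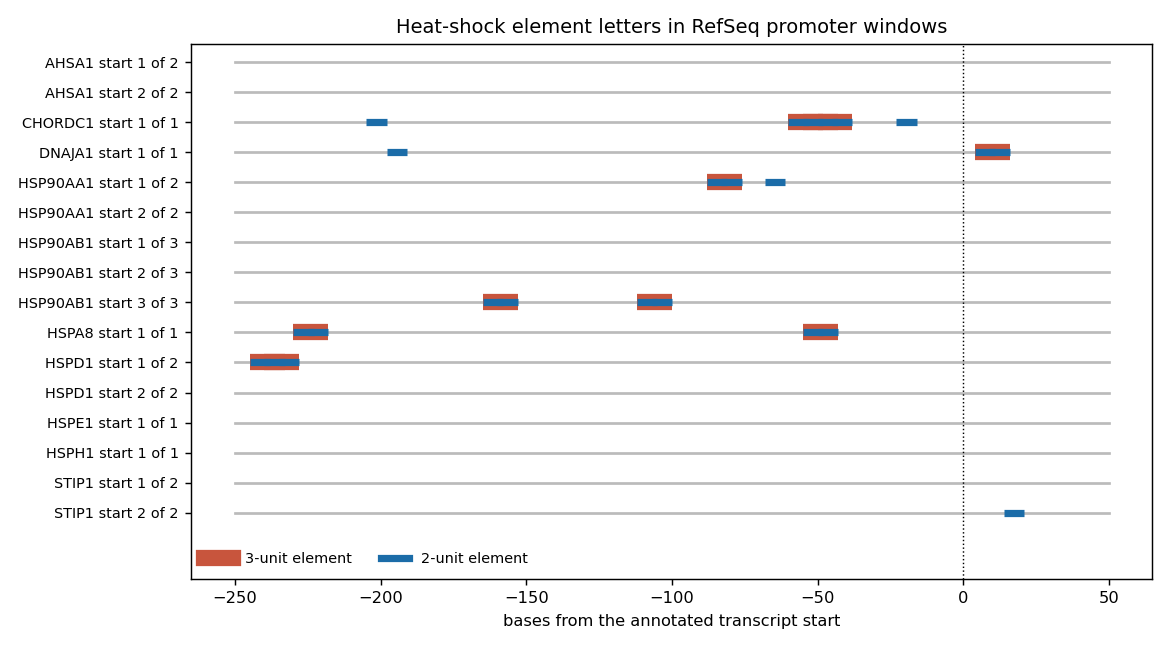
Position of 3-unit (red) and 2-unit (blue) heat-shock element letters in the RefSeq windows of the 10 genes, as bases from each annotated transcript start (grey line: window, with the starts of a gene numbered by rising coordinate). CHORDC1, DNAJA1, HSP90AA1, HSP90AB1, HSPA8 and HSPD1 have a red mark and AHSA1, HSPE1 and HSPH1 have no mark.

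The depth of an OCI-Ly1 library was between 17579732 and 32651115 estimated counts, and that of a TMD8 library between 9550092 and 20509500. Of these, each of the 10 genes took between 1867 and 68545 per OCI-Ly1 library and between 418 and 53186 per TMD8 library, with CHORDC1 the lowest in both. All 7 B-cell markers were at 1 TPM (transcripts per 1000000) or more in both lines. Their summed TPM ran from 950 to 1052 in OCI-Ly1 and, in TMD8, from 807 to 940 with DMSO, 682 to 732 at 150 nM and 541 to 622 at 500 nM. The 5 T-cell markers summed to 27.2 to 29.8 TPM with DMSO and 12.3 to 14.2 at 500 nM in OCI-Ly1, nearly all CD3G and CD3D, and to at most 2.13 in TMD8, where CD3E was listed at 0. The 4 fibroblast markers rose from between 0.492 and 0.599 TPM to between 2.75 and 2.96 in TMD8, mostly COL1A1, and stayed at or under 0.0688 in OCI-Ly1. Myeloid markers summed to at most 1.53 TPM in any library. Epithelial markers, mostly KRT8, ran from 7.09 to 17.6 TPM. The 4 markers of activated B-cell-like lymphoma went from between 95.5 and 101 TPM with DMSO to between 179 and 189 under 500 nM in OCI-Ly1. In TMD8 they went the other way, from between 599 and 748 TPM to between 303 and 352. The 4 germinal-centre-like markers ran from 164 to 202 TPM in OCI-Ly1, and in TMD8 from 32.4 to 40.4 with DMSO and from 16.5 to 18.3 under 500 nM. These marker levels are in TPM, a scale on which all genes together also shifted. At 500 nM against DMSO the median change of all tested genes in log2(TPM + 1) was -0.22 in TMD8 and 0.10 in OCI-Ly1. The part of that shift in the marker changes was not tested, nor the part of the marker changes in the chaperone values.

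Levels of different genes are compared in TPM, which is per transcript length. In OCI-Ly1 with DMSO, HSPA8 was highest at 1574 ± 54.0 TPM (SD, n = 3), followed by HSP90AB1 at 1126 ± 11.6 and HSPD1 at 773 ± 25.1. HSP90AA1 (458), DNAJA1 (430) and HSPE1 (422) came next, and each overlapped its neighbour in that order. AHSA1 followed at 349.5, STIP1 at 251 and HSPH1 at 176, each clear of the next. CHORDC1, an HSP90 co-chaperone with zinc-binding CHORD domains, was lowest at 43.6 ± 4.58. HSPA8 thus stood at place 101 among all genes of the table, and CHORDC1 at place 2953.

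The order differed in TMD8. With DMSO, HSP90AB1 came first at 753 ± 115 TPM and HSPA8 second at 624 ± 102, with overlapping libraries. HSP90AA1 (371), HSPD1 (324) and DNAJA1 (263) followed, each overlapping the next. HSPH1 (120.1), STIP1 (103), HSPE1 (101) and AHSA1 (89.1) formed a second run of overlapping neighbours, and CHORDC1 was again lowest at 15.3 ± 2.35. TPM levels are not set against each other across the lines, since each line's table was made separately and the 10 highest genes took 59.1% of all TPM in TMD8 with DMSO, against 17.7% in OCI-Ly1. In TMD8 these highest genes were mostly short RNAs, led by MIR3687 and MIR3648, and their share reached 66.5% at 150 nM and 72.6% at 500 nM, while in OCI-Ly1 it was 17.2% and 23.7%.

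Changes between groups are therefore given in CPM, counts per 1000000 scaled by TMM within each line, and as log2 fold changes from edgeR with their standard errors. In bulk RNA, fewer cells with a transcript and less transcript per cell cannot be told apart. HSPA8 encodes HSC70, the constitutive cytosolic HSP70. Its OCI-Ly1 libraries held 2673, 2786 and 2766 CPM in the DMSO group, 2415, 2363 and 2642 in the 150 nM group and 1192, 1140.3 and 1163 in the 500 nM group. The 3 groups did not overlap, and nearly all of the difference lay between 150 and 500 nM. Its TMD8 libraries held 2110.2, 1835 and 1882 CPM in the DMSO group, 1274, 1161 and 1036 in the 150 nM group and 779.6, 778 and 784 in the 500 nM group. Here each dose lay below the one before without overlap, and the step to 150 nM was the larger. At 500 nM against DMSO the log2 fold change was -1.23 ± 0.04 (SE) in OCI-Ly1 and -1.32 ± 0.07 in TMD8, the largest fall among the 10 genes in both lines.

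DNAJA1, the type A J-domain partner of HSC70, moved least in OCI-Ly1. Its libraries there were at 454, 496 and 485 CPM in the DMSO group, 445, 444 and 482 in the 150 nM group and 394, 361 and 358 in the 500 nM group. Only the 500 nM libraries stood apart, with a log2 fold change of -0.37 ± 0.05 against DMSO. In TMD8 it ran from 496 to 564 CPM with DMSO, 375 to 418 at 150 nM and 314 to 325 at 500 nM, a log2 fold change of -0.70 ± 0.06 at 500 nM. HSPH1, the HSP110 nucleotide exchange factor, ran from 484 to 521 CPM with DMSO, 466 to 521 at 150 nM and 319.6 to 334 at 500 nM in OCI-Ly1, which gave -0.61 ± 0.05 at 500 nM. In TMD8 HSPH1 ran from 583 to 653, 359 to 434 and 327 to 344 CPM, and most of its fall of 0.85 on the log2 scale was already there at 150 nM (-0.63 ± 0.06). Its further step from 150 to 500 nM (-0.22 ± 0.06) was no longer called without the first 150 nM library (-0.14) or without the first 500 nM library (-0.20).

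Of the 2 cytosolic HSP90 genes, HSP90AB1 encodes the more constitutive form and HSP90AA1 the more inducible one. In OCI-Ly1, HSP90AB1 was at 2329.8, 2383 and 2225 CPM in the DMSO group, 2205, 2008 and 2074 in the 150 nM group and 1156, 1128 and 1135 in the 500 nM group. HSP90AA1 was at 1129, 1218 and 1213 CPM in the DMSO group, 1213, 1125 and 1254 in the 150 nM group and 673, 648 and 655 in the 500 nM group. For HSP90AA1 the DMSO and 150 nM libraries overlapped, and for both genes the 500 nM libraries lay far below the rest. In TMD8, HSP90AB1 was at 2973, 2651 and 2676 CPM in the DMSO group, 2205, 2069 and 1950.0 in the 150 nM group and 1630.0, 1653 and 1625 in the 500 nM group. HSP90AA1 was at 1858, 1637 and 1650.1 CPM in the DMSO group, 1240.0, 1144 and 1099 in the 150 nM group and 974, 999 and 944 in the 500 nM group. No group overlapped another in TMD8 for either gene. The log2 fold change at 500 nM was -1.02 ± 0.04 for HSP90AB1 and -0.85 ± 0.05 for HSP90AA1 in OCI-Ly1, and -0.76 ± 0.06 and -0.82 ± 0.06 in TMD8. As TPM, the ratio of HSP90AA1 to HSP90AB1 was 0.407 ± 0.024 (SD, n = 3) with DMSO, 0.453 ± 0.023 for 150 nM and 0.457 ± 0.003 for 500 nM in OCI-Ly1, where every treated library lay above every DMSO library. In TMD8 the ratio was 0.492 ± 0.004 with DMSO, 0.444 ± 0.005 at 150 nM and 0.471 ± 0.009 at 500 nM, and the 3 groups did not overlap.

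The HSP90 co-chaperones AHSA1, STIP1 and CHORDC1 were lower at 500 nM in both lines. In OCI-Ly1 AHSA1, the activator of the HSP90 ATPase, was at 351, 351 and 348 CPM in the DMSO group, 311, 305 and 327 in the 150 nM group and 212, 217 and 208 in the 500 nM group. The TMD8 libraries held 158, 161 and 161 CPM in the DMSO group, 120.4, 121 and 114 in the 150 nM group and 86.7, 85.7 and 87.4 in the 500 nM group. The 3 groups of AHSA1 were apart in both lines, and the log2 fold change at 500 nM was -0.72 ± 0.05 in OCI-Ly1 and -0.89 ± 0.04 in TMD8. STIP1, the adaptor between HSP70 and HSP90, ran from 413 to 416, 354 to 408 and 259 to 272 CPM across the doses in OCI-Ly1, and in TMD8 from 290.0 to 332, 185 to 218 and 153 to 155. Its log2 fold change at 500 nM was -0.64 ± 0.05 and -0.99 ± 0.06. CHORDC1 ran from 105 to 124, 97.4 to 123 and 72.3 to 80.4 CPM in OCI-Ly1. The TMD8 libraries of CHORDC1 ran from 68.4 to 76.6, 50.6 to 60.0 and 42.9 to 46.6 CPM. Its log2 fold change at 500 nM was -0.57 ± 0.08 in OCI-Ly1. In TMD8 it was -0.68 ± 0.07, the smallest of the 10 genes in that line.

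HSPD1 and HSPE1, the chamber and lid of the mitochondrial chaperonin, start next to each other on opposite strands, as the annotated starts given above show. In OCI-Ly1, HSPD1 was at 1307, 1398 and 1341 CPM in the DMSO group, 1275, 1332 and 1361 in the 150 nM group and 993, 934 and 955 in the 500 nM group. HSPE1 was at 252, 285 and 273 CPM in the DMSO group, 252, 257 and 269.8 in the 150 nM group and 155, 145 and 149 in the 500 nM group. Both genes fell only at 500 nM, HSPD1 by 0.49 and HSPE1 by 0.85 on the log2 scale. In TMD8, HSPD1 was at 1044, 1009 and 988 CPM in the DMSO group, 721, 655 and 627 in the 150 nM group and 515, 538 and 504 in the 500 nM group. HSPE1 was at 113, 124 and 112 CPM in the DMSO group, 81.9, 69.5 and 82.6 in the 150 nM group and 53.0, 52.8 and 50.9 in the 500 nM group. All groups were apart in TMD8, and the log2 fold change at 500 nM was -0.97 ± 0.06 for HSPD1 and -1.15 ± 0.07 for HSPE1. In OCI-Ly1 the TPM ratio of HSPD1 to HSPE1 was 1.84 ± 0.06 with DMSO, 1.87 ± 0.03 with 150 nM and 2.36 ± 0.007 with 500 nM (SD, n = 3), and there the 500 nM libraries lay above all others. In TMD8 it was 3.20 ± 0.21, 3.15 ± 0.34 and 3.63 ± 0.08, and the 500 nM libraries again lay above all others.

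**Figure D2:**
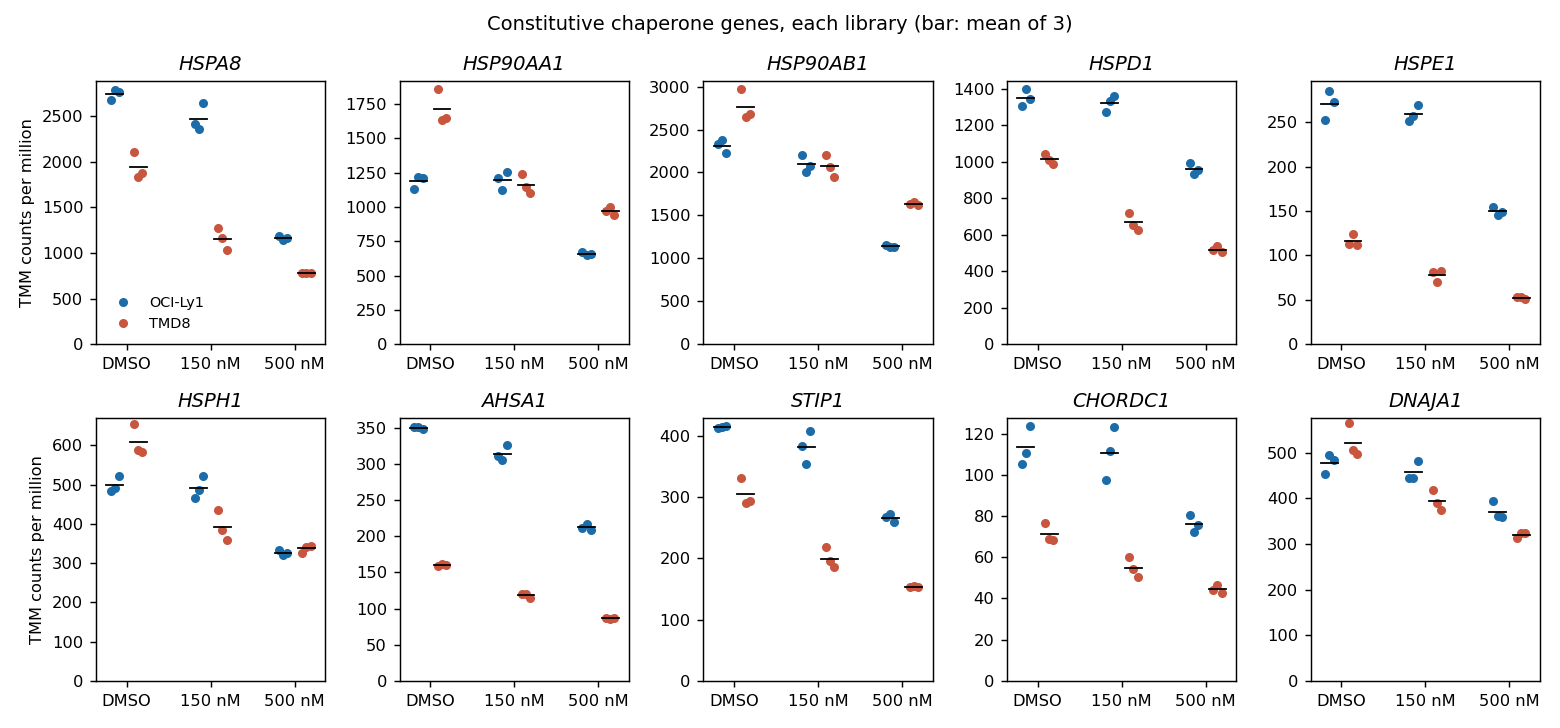
TMM counts per 1000000 of each gene (vertical axes, each from 0) in every library of OCI-Ly1 (blue) and TMD8 (red) by dose, with the mean of 3 libraries as a bar and scaling done within each line. HSPA8 falls from a mean of 2742 to 1165 in OCI-Ly1, mostly between 150 and 500 nM, and from 1942 to 780.5 in TMD8, mostly by 150 nM.

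At 500 nM against DMSO, all 10 genes were called lower in OCI-Ly1 (edgeR, adjusted p under 0.05), beside 25.9% of the 15638 genes tested. In TMD8 all 10 were called lower at 500 nM, beside 30.7% of 15363 genes, and at 150 nM, beside 25%. The list was chosen on measured values of these data, and which comparisons were used is not recorded, so the counts only describe it. For all 10 the treated libraries lay below every DMSO library in these 3 comparisons, as they did for 29.4%, 33.3% and 28.3% of all genes in that order. The median log2 fold change of the 10 genes was -0.68 at 500 nM in OCI-Ly1, where the median of all tested genes was -0.003. It was -0.57 at 150 nM and -0.87 at 500 nM in TMD8, beside medians of 0.01 and 0.04 over all genes. Between 150 and 500 nM all 10 were called lower in OCI-Ly1 (background 21.1%), with a median of -0.58. In TMD8 all 10 were called lower between 150 and 500 nM as well (background 15%), with a median of -0.35. On the log2(TPM + 1) scale the median of all genes itself moved at 500 nM, to 0.10 in OCI-Ly1 and to -0.22 in TMD8, and all 10 genes lay below it in both lines.

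At 150 nM in OCI-Ly1 none of the 10 genes was called in either direction, beside 0.889% of all genes. The median log2 fold change was -0.06, with HSP90AA1 highest at 0.01 ± 0.05 and AHSA1 lowest at -0.16 ± 0.05. HSPA8, HSP90AB1, AHSA1 and STIP1 had all 3 of their 150 nM libraries below all 3 DMSO libraries, as had 7.32% of all genes. Their log2 fold changes were -0.15, -0.14, -0.16 and -0.12. Without the first 150 nM library HSP90AB1 was called lower (-0.18), and without the third HSPA8 was (-0.20).

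**Figure D3:**
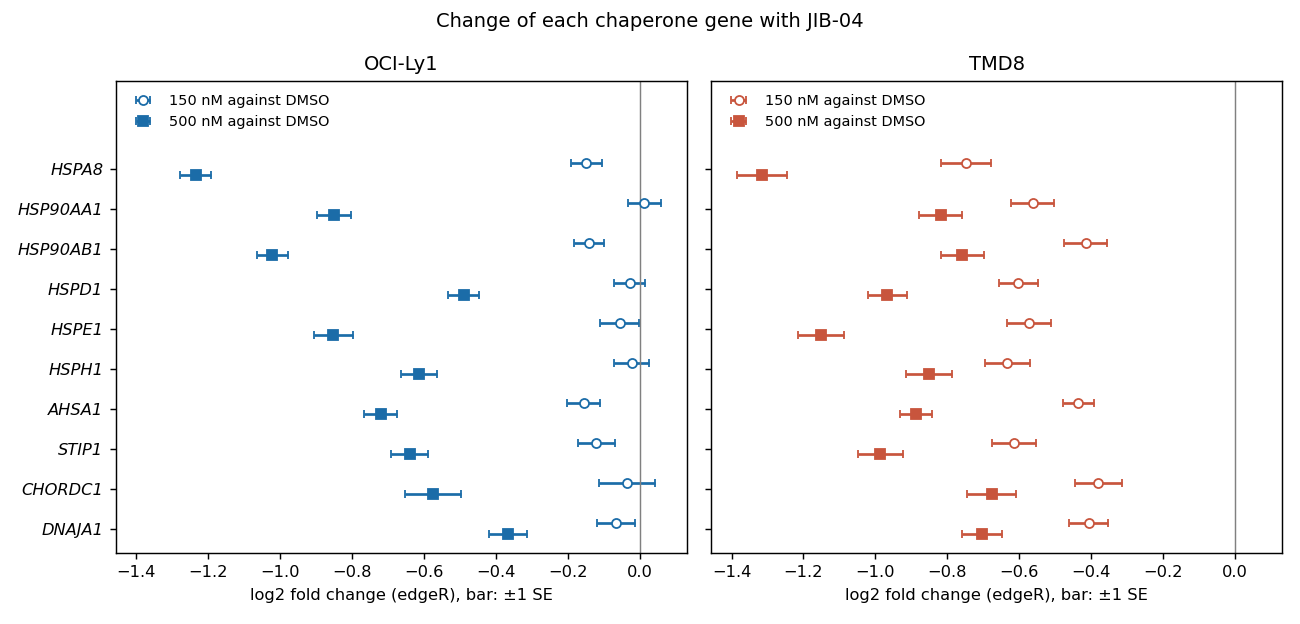
Log2 fold change of each gene against DMSO at 150 nM (open circles) and 500 nM (filled squares), with 1 SE either side, in OCI-Ly1 (left) and TMD8 (right). In OCI-Ly1 the 150 nM values lie between -0.16 and 0.01, and in TMD8 between -0.75 and -0.38.

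The response of the 2 lines was compared in 1 fit of 16604 genes, by subtracting the log2 change in TMD8 from the one in OCI-Ly1 at the same dose. At 150 nM it was above 0 and called for all 10 genes (background for higher 15%), with a median of 0.51. HSPH1 (0.62 ± 0.09) and HSPA8 (0.61 ± 0.09) differed most and HSP90AB1 (0.28 ± 0.08) least. The call for CHORDC1 (0.35 ± 0.11) was lost with library size as the only scaling (0.27) and without any of 4 libraries: the first DMSO library of either line (0.31 in OCI-Ly1, 0.29 in TMD8), or the third 150 nM library of OCI-Ly1 (0.27) or TMD8 (0.28).

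At 500 nM the difference was called for 7 of the 10 genes. It was above 0, a smaller fall in OCI-Ly1, for HSPD1 (0.51), STIP1 (0.38), DNAJA1 (0.37), HSPE1 (0.33), HSPH1 (0.27) and AHSA1 (0.20), 6 genes beside a background of 28.2%. HSPH1 was no longer called without the first TMD8 DMSO library (0.21). HSP90AB1 alone was called below 0, at -0.23 ± 0.08 (background 18.1%). That call was lost with DESeq2 size factors (-0.21) and without any of 5 libraries: the second DMSO library of OCI-Ly1 (-0.20), its second 500 nM library (-0.22), the second and the third DMSO library of TMD8 (-0.20 each), or its second 500 nM library (-0.22). For HSPA8, HSP90AA1 and CHORDC1 the difference was not called. The 95% intervals of the difference, from its SE, ran from -0.07 to 0.30 for HSPA8, from -0.17 to 0.17 for HSP90AA1 and from -0.09 to 0.35 for CHORDC1.

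In untreated cells the same fit put 6 of the 10 genes higher in OCI-Ly1 than in TMD8 (background 37.8%), led by HSPE1 (1.09 ± 0.06) and AHSA1 (1.01 ± 0.05). The other 4 were lower (background 39%): HSP90AA1 (-0.65 ± 0.06), HSPH1 (-0.41 ± 0.06), HSP90AB1 (-0.38 ± 0.06) and DNAJA1 (-0.25 ± 0.06). With library size as the only scaling DNAJA1 was no longer called (-0.10). That scaling moved the median of the 10 genes from 0.31 to 0.46, and the median of all genes from -0.02 to 0.12.

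Together the 10 genes made up 0.560% ± 0.016 of all TPM in OCI-Ly1 with DMSO, 0.536% ± 0.030 at 150 nM and 0.343% ± 0.003 with 500 nM (SD, n = 3). In TMD8 they made up 0.276% ± 0.040, 0.169% ± 0.014 and 0.112% ± 0.007. The first TMD8 DMSO library (0.323%) lay above the other DMSO libraries (0.256% and 0.250%), and all 3 lay above the treated ones. On the CPM scale the sum fell by 0.87 in OCI-Ly1 and by 0.91 in TMD8 at 500 nM (log2), while on the TPM scale it fell by 0.71 and by 1.31.

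Of the stress-inducible cytosolic HSP70 genes, HSPA1A, HSPA1B and HSPA6 were called higher at 500 nM in TMD8. The log2 fold change of HSPA1B was 2.78 there, smaller than those of HSPA1A (6.37) and HSPA6 (7.37). In OCI-Ly1 HSPA1B was at -0.02 and not called. HSPA1A and HSPA1B are nearly identical copies whose reads the counting could split, and HSPA6 is a further inducible relative, so their TPM was summed. With DMSO the sum was 4.36% ± 0.24 of the HSPA8 level in OCI-Ly1 and 4.28% ± 0.52 in TMD8. At 500 nM it was 10.0% ± 0.52 of HSPA8 in OCI-Ly1, where the sum itself was 68.6 ± 2.97 TPM with DMSO and 73.7 ± 2.85 at 500 nM. In TMD8 it was 14.6% ± 4.65 at 150 nM and 118% ± 2.06 at 500 nM. There the sum went from 27.3, 26.4 and 25.2 TPM with DMSO through 37.6, 45.5 and 58.8 at 150 nM to 211, 223 and 245 at 500 nM, while HSPA8 went down to 179, 193 and 204. Taken as this sum, inducible HSP70 transcript exceeded that of HSPA8 in all 3 TMD8 libraries at 500 nM. In CPM, HSPA1A and HSPA6, given below, each stayed under HSPA8 at that dose. The share of HSPA1B alone in the sum is not given here.

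**Figure D4:**
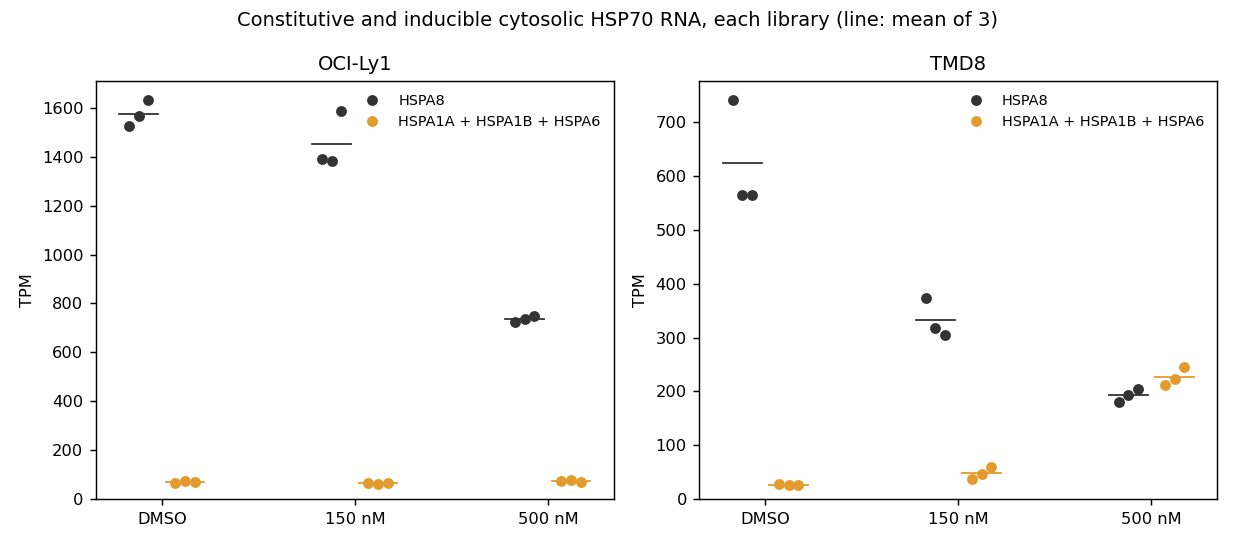
TPM of HSPA8 (dark) and the sum of HSPA1A, HSPA1B and HSPA6 (orange) in each library by dose, with the mean of 3 libraries as a line, for OCI-Ly1 (left) and TMD8 (right; the 2 vertical axes differ). In TMD8 at 500 nM the orange points (211 to 245) lie above the dark ones (179 to 204), and in OCI-Ly1 they stay under 80.

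HSPA1A rose in TMD8 from 1.30, 2.82 and 2.85 CPM with DMSO to 195, 187 and 207 at 500 nM, a log2 fold change of 6.37 ± 0.23 (edgeR, adjusted p = 4.19e-13). The OCI-Ly1 libraries held 4.01, 9.55 and 3.85 CPM with DMSO and 3.24 ± 0.95 (SD, n = 3) at 500 nM, and the called fall (-0.80 ± 0.29, edgeR adjusted p = 0.0265) came with overlapping groups and 1 high DMSO library. HSPA6 rose in TMD8 from between 0.934 and 1.63 CPM to between 206 and 226 (7.37 ± 0.26, edgeR adjusted p = 4.48e-13). In OCI-Ly1 it had 4, 3 and 2 counts with DMSO and 69.7, 37 and 37.7 at 500 nM, too few for a fold change against DMSO. SERPINH1, the collagen chaperone HSP47, rose by 3.08 ± 0.24 in OCI-Ly1 (edgeR, adjusted p = 7.90e-09) and by 0.32 ± 0.06 in TMD8 (edgeR, adjusted p = 0.000279). In untreated cells SERPINH1 stood far lower in OCI-Ly1 than in TMD8 (-5.64 ± 0.14), so the OCI-Ly1 rise began from a lower level. Of the 9 inducible genes tested, 3 were higher and 3 lower at 500 nM in OCI-Ly1, and 6 were higher and 2 lower in TMD8.

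Another 79 chaperone genes in 6 lists were read beside the 10 with the same fits. At 150 nM in OCI-Ly1 no gene of any list was called, beside 0.889% of all genes. The share of all genes called higher was 27.7% at 500 nM in OCI-Ly1, 19.2% at 150 nM in TMD8 and 29.9% at 500 nM in TMD8, and the shares called lower are given above. Among 28 cytosolic co-chaperones of HSP70 and HSP90, 13 were lower and 3 higher at 500 nM in OCI-Ly1, with a median of -0.13. In TMD8 21 were lower and 1 higher at 150 nM, and 23 were lower and 1 higher at 500 nM, with medians of -0.30 and -0.51. FKBP4, the HSP90-bound immunophilin FKBP52, fell in both lines. It went from 352, 356 and 341 CPM with DMSO to 240.2, 245 and 233 at 500 nM in OCI-Ly1 (-0.55 ± 0.04, edgeR adjusted p = 1.59e-08). The TMD8 libraries held 382, 384 and 384 CPM with DMSO and 158, 166 and 168 at 500 nM (-1.23 ± 0.06, edgeR adjusted p = 1.18e-11). FKBP5, its paralog FKBP51, fell by 0.71 in OCI-Ly1 and 0.84 in TMD8 (edgeR, adjusted p = 1.11e-08 and 1.04e-09). PTGES3, the HSP90 co-chaperone p23, fell by 0.50 and 0.80 (edgeR, adjusted p = 2.12e-06 and 2.25e-10).

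Of the 3 named co-chaperones with the largest rises in OCI-Ly1, only DNAJB2 was called higher in both lines. DNAJB2, a J-domain protein that delivers clients to degradation, rose by 0.88 ± 0.07 in OCI-Ly1 and by 1.07 ± 0.09 in TMD8 at 500 nM (edgeR, adjusted p = 6.48e-09 and 2.08e-08). CDC37, which brings kinases to HSP90, rose by 0.15 in OCI-Ly1 and fell by 0.25 in TMD8 (edgeR, adjusted p = 0.0304 and 0.000358). DNAJB6, which suppresses aggregation, rose by 0.17 and fell by 0.16 (edgeR, adjusted p = 0.0119 and 0.0109).

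TRiC is the cytosolic chaperonin for actin and tubulin, and prefoldin hands it clients. Of their 14 subunits 11 were lower and none higher at 500 nM in OCI-Ly1 (median -0.49). In TMD8 12 were lower at 150 nM (median -0.43) and 13 at 500 nM (median -0.74), again with none higher. CCT2 fell by 0.77 ± 0.04 in OCI-Ly1 and by 1.02 ± 0.07 in TMD8 (edgeR, adjusted p = 1.15e-10 and 9.48e-10). CCT5 fell by 0.41 and 1.10 (edgeR, adjusted p = 1.11e-06 and 4.03e-11), and TCP1 by 0.63 and 0.93 (edgeR, adjusted p = 6.01e-09 and 3.65e-09).

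Further mitochondrial genes work beside HSPD1 and HSPE1. Of 12 mitochondrial chaperones and proteases, 4 were higher and 2 lower at 500 nM in OCI-Ly1 (median -0.03), beside 27.7% and 25.9% of all genes. In TMD8 none was higher and 8 lower at 150 nM (median -0.29), and 1 was higher and 9 lower at 500 nM (median -0.55). LONP1, the matrix protease, rose from 204, 196 and 186 CPM with DMSO to 342, 350.0 and 324 at 500 nM in OCI-Ly1 (0.79 ± 0.05, edgeR adjusted p = 1.45e-09). In TMD8 LONP1 was at 364, 378 and 373 CPM with DMSO and 357, 359 and 351 at 500 nM, a difference that did not pass the test (-0.06 ± 0.04, edgeR adjusted p = 0.206). GRPEL2, a nucleotide exchange factor of mitochondrial HSP70, rose by 0.67 in OCI-Ly1 and fell by 0.53 in TMD8 (edgeR, adjusted p = 7.74e-07 and 3.19e-06). DNAJA3, a J-domain protein of mitochondria, rose by 0.39 and fell by 0.57 (edgeR, adjusted p = 7.43e-06 and 9.17e-08). GRPEL1 fell by 0.42 and 0.94 (edgeR, adjusted p = 3.61e-05 and 2.95e-08), and TRAP1, the mitochondrial HSP90, by 0.39 and 0.79 (edgeR, adjusted p = 4.89e-06 and 4.00e-09). CLPP, the proteolytic subunit of a matrix protease, fell by 0.63 in TMD8 (edgeR, adjusted p = 1.03e-07), and in OCI-Ly1 it was at -0.03 (edgeR, adjusted p = 0.669).

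Among 11 endoplasmic reticulum chaperones, 4 were higher and 7 lower at 500 nM in OCI-Ly1 (median -0.29), and 3 were higher and 6 lower in TMD8 (median -0.12). DNAJB9, a J-domain partner of the HSP70 of this compartment, rose by 1.09 in OCI-Ly1 and 1.79 in TMD8 (edgeR, adjusted p = 4.24e-08 and 2.57e-11). DNAJC3 rose by 0.16 and 0.54 (edgeR, adjusted p = 0.0319 and 5.57e-08), and SIL1, a nucleotide exchange factor, by 0.48 and 0.35 (edgeR, adjusted p = 0.00184 and 0.00275). CALR, calreticulin, fell by 0.95 and 0.51 (edgeR, adjusted p = 2.25e-11 and 3.75e-08), and HSP90B1, the HSP90 of this compartment, by 0.71 and 0.21 (edgeR, adjusted p = 6.64e-09 and 0.00191). SDF2L1 fell by 0.91 in OCI-Ly1 (edgeR, adjusted p = 1.16e-06) and was at 0.10 in TMD8 (edgeR, adjusted p = 0.418).

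**Figure D5:**
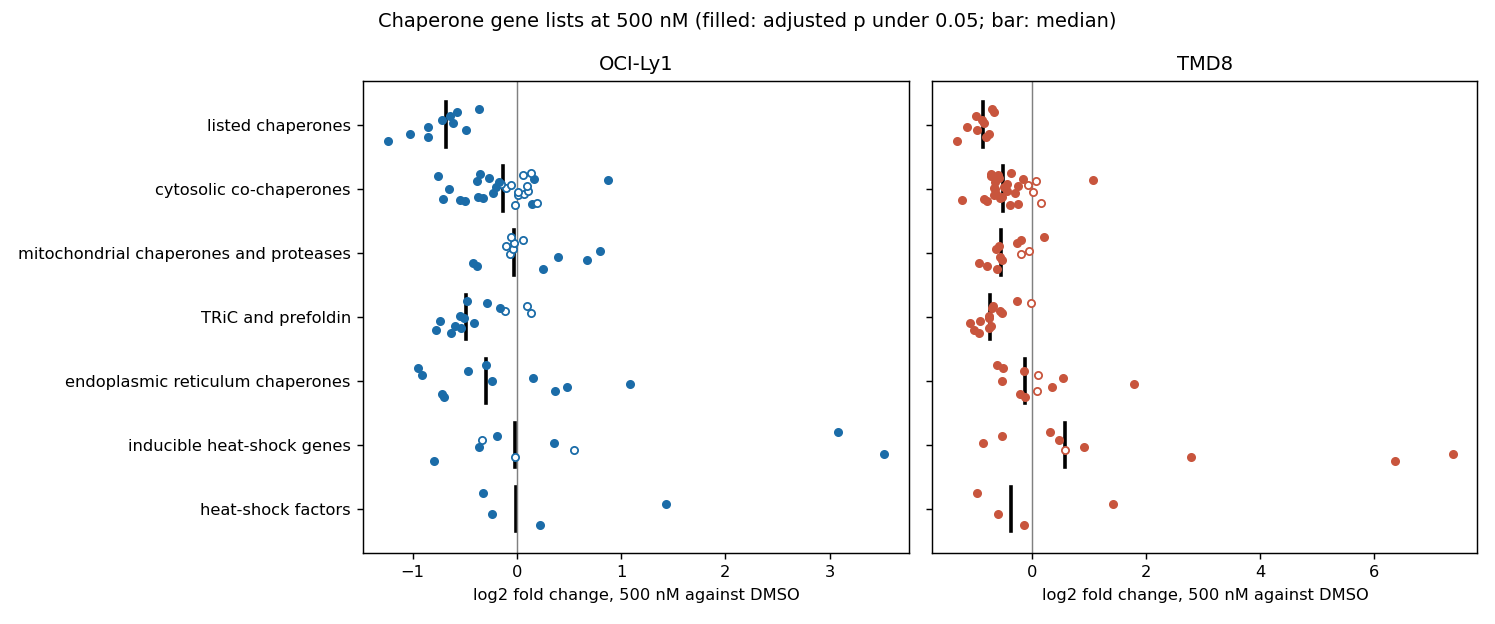
Log2 fold change at 500 nM against DMSO of the 10 genes (top) and of 6 lists of other chaperone genes in OCI-Ly1 (left) and TMD8 (right; the 2 horizontal axes differ), with 1 point per gene, filled where called, and the median as a bar. The 10 genes lie between -1.23 and -0.37 in OCI-Ly1, and HSPA1A and HSPA6 lie farthest right in TMD8, at 6.37 and 7.37.

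The heat-shock factors and HSBP1 did not move in one direction. HSF1 was at 77.4, 73.9 and 65.7 CPM with DMSO and 82.9, 86.4 and 82.9 at 500 nM in OCI-Ly1 (0.22 ± 0.06, edgeR adjusted p = 0.00892). Its level in TMD8 went from 91.1 ± 3.47 CPM to 82.5 ± 0.09 (SD, n = 3), a smaller step down (-0.14 ± 0.05, edgeR adjusted p = 0.0136). HSF2 fell by 0.24 and 0.60 (edgeR, adjusted p = 0.00656 and 8.80e-05), and HSBP1, a small protein that binds HSF1, by 0.32 and 0.97 (edgeR, adjusted p = 0.000289 and 8.94e-10). HSF4 rose by 1.43 and 1.42 from low levels, 1.07 to 1.82 CPM with DMSO in OCI-Ly1 and 3.96 to 4.73 in TMD8 (edgeR, adjusted p = 1.25e-05 and 1.46e-08).

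The other genes with a 3-unit heat-shock element in a window moved in both directions. Of 49 tested at 500 nM in OCI-Ly1, 18 were higher and 13 lower, beside 27.7% and 25.9% of all genes, with a median log2 fold change of 0.11. Of 47 in TMD8, 13 were higher and 13 lower, close to the 29.9% and 30.7% of all genes, with a median of 0.05. At 150 nM 7 were higher and 9 lower in TMD8, beside 19.2% and 25% of all genes. None was called at 150 nM in OCI-Ly1, beside 0.889%. No difference from all genes was tested, and nothing particular to genes with the element is read from these counts.

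The genes most like the 10 were sought by the root mean square difference between a gene's 4 log2 fold changes, 2 doses in 2 lines, and the median changes of the 10. Each pair of doses shares its DMSO libraries. Among 3093 genes with a mean of at least 50 CPM in every group, the nearest were FKBP5 (0.03), TRA2B (0.03), TCP1 (0.04), CCT6A (0.05) and SMC4 (0.05). FKBP5 is an HSP90 co-chaperone and TCP1 and CCT6A are TRiC subunits, while TRA2B is a splicing factor and SMC4 a condensin subunit. Of the 10 genes, HSPH1 lay nearest to the median (0.05) and HSPA8 farthest (0.37). As many as 791 of 3084 other genes lay at least as near as HSPA8.

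Some counts could be shared with genes of like sequence. Relatives were sought by the start of their symbol, and their likeness in sequence was not measured. Among them HSP90AB4P was at most at 1.77 TPM, HSPE1-MOB4 at 1.21 TPM and DNAJA1P5 at 0 in any library. AHSA2 lay between 32.7 and 41.4 TPM in OCI-Ly1 and between 8.78 and 11.3 TPM in TMD8. No strand was given for the counting, so reads of genes that overlap on opposite strands cannot be told apart.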

How the data were processed

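RNA was measured in 18 libraries of 6 groups (3 each). The authors deposited, for each line, estimated counts per gene, neither scaled nor all whole, and TPM, which sum to 1000000 in each library. The submitters' processing notes name kallisto 0.46.0, R 4.3.1, DESeq2 1.40.2 and hg19; the index, annotation and step from transcripts to genes are not given in the sources used here. The promoter windows are on another build, GRCh38.p14, so coordinates belong to the printed sequences only. The genes, lists, named-gene rule and motif search were chosen with earlier results of these data known.

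Estimated counts were rounded to whole numbers and fitted with edgeR 4.0.16 in R 4.3.3 (TMM scaling, filterByExpr, quasi-likelihood test, Benjamini-Hochberg adjustment over all genes tested, called at 0.05). Each line was fitted on its 9 libraries, and line differences on all 18. The coefficient of variation was 6.84% in OCI-Ly1, 5.30% in TMD8 and 6.20% over both. Each SE is the size of the log2 fold change over the root of its F statistic. All 10 listed genes were named. Of each other list, up to 3 genes with the largest called rise and up to 3 with the largest called fall at 500 nM were named, at a mean of 5 CPM or more (3 in all for inducible genes), and the 5 genes nearest to the median change. Replicates were compared in 18 pairs, with chi-square over its degrees of freedom between 1.65 and 11.5 and a lowest r of 0.99699, and none was merged. That spread can be one of library preparation. The p-values and SEs count each library as a replicate, so they may not cover the spread between separate cultures. On simulated data with known changes the fit recovered 84 of 98 genes changed by 1 (log2) and 62 of 97 changed by 0.5. That was among 15255 genes for OCI-Ly1 at 500 nM, and for TMD8 it was 86 of 100 and 72 of 99 among 14795. In the data 53.6% of all genes were called at 500 nM in OCI-Ly1 and 60.7% in TMD8, far more than were changed in the simulation. These recovery rates may therefore not carry over to the data. Alternatives were DESeq2 1.42.0, its size factors in edgeR, library size alone, no low-count filter, limma 3.58.1 on log2(TPM + 1) and log2(TPM + 0.1), a replicate block, all 18 libraries in 1 fit and leaving out each library. A centred TPM scale was added after seeing the data.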

Additional observations from a re-analysis of the deposited data

Results flagged for a closer look

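The 10 listed genes had a called difference between the lines in the response to 150 nM, tested as an interaction in edgeR over all 18 libraries and given here as the log2 change in OCI-Ly1 minus that in TMD8. The values were 0.61 for HSPA8, 0.58 for HSP90AA1, 0.28 for HSP90AB1, 0.58 for HSPD1, 0.53 for HSPE1, 0.62 for HSPH1, 0.29 for AHSA1, 0.50 for STIP1, 0.35 for CHORDC1 and 0.35 for DNAJA1. At 500 nM the difference was called for 7 of them: -0.23 for HSP90AB1, 0.51 for HSPD1, 0.33 for HSPE1, 0.27 for HSPH1, 0.20 for AHSA1, 0.38 for STIP1 and 0.37 for DNAJA1. The genes were listed with results of these data known, so the values are a description.

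The other named chaperone genes were picked for large called changes at 500 nM in these same libraries, so their values are a description. Of them, all but DNAJB2, FKBP5, SIL1 and HSF4 had a called difference between the lines at 500 nM in the same test. These were 24 genes, beside a call for 46.4% of all genes. Among co-chaperones the difference was 0.36 for DNAJB6, 0.42 for CDC37, 0.71 for FKBP4 and 0.33 for PTGES3. Among mitochondrial genes it was 0.89 for LONP1, 1.23 for GRPEL2, 0.99 for DNAJA3, 0.54 for GRPEL1, 0.43 for TRAP1 and 0.62 for CLPP. The TRiC subunits CCT5, CCT2 and TCP1 differed by 0.72, 0.28 and 0.33. Among endoplasmic reticulum genes it was -0.67 for DNAJB9, -0.35 for DNAJC3, -0.41 for CALR, -0.98 for SDF2L1 and -0.47 for HSP90B1. HSF1 differed by 0.39, HSBP1 by 0.68 and HSF2 by 0.39. The 3 inducible genes named, themselves chosen for the largest changes of their list, differed by -7.08 for HSPA1A, 2.78 for SERPINH1 and -3.82 for HSPA6. The HSPA6 value rests on 2 to 4 counts per OCI-Ly1 DMSO library and depends on the prior count.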

How the results depend on the processing

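No result changed direction under any alternative where it was called. For the 10 genes, 1579 alternative log2 fold changes stayed within the SD between libraries and 191 moved by more. Without one library, genes called lower at 150 nM in OCI-Ly1 ran from 0 to 1, genes called below 0 in the 500 nM line difference from 0 to 1, and other chaperone genes higher at 150 nM in OCI-Ly1 from 0 to 3. With DESeq2 size factors none of the 10 genes was called below 0 in the 500 nM line difference (1 in the main edgeR fit). For other chaperone genes at 150 nM in OCI-Ly1, 1 was lower with no low-count filter (0 in the main fit). With all 18 libraries in 1 fit, 2 were higher (0 in the main fit). On log2(TPM + 1), 25 were higher at 500 nM in OCI-Ly1 (16 in the main fit). In TMD8 7 were higher (12 in the main fit), also 7 on log2(TPM + 0.1). With library size alone 13 were higher at 150 nM in TMD8 (7 in the main fit). The summed level of the 10 genes at 500 nM against DMSO differed by -0.87 in OCI-Ly1 and -0.91 in TMD8 as CPM (log2), and by -0.71 and -1.31 as TPM. The cause of these shifts was not tested.

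All genes called at 150 nM in OCI-Ly1 numbered 117 higher and 22 lower, 60 to 264 and 5 to 75 without one library, 220 and 103 with no low-count filter, 190 and 50 with DESeq2, and 60 and 1 on log2(TPM + 1).

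Replicate numbers did not pair the libraries across all groups. Between DMSO and 150 nM, however, libraries numbered 1 and those numbered 3 deviated together weakly, at 0.25 each in OCI-Ly1 and 0.17 and 0.13 in TMD8. In TMD8 DMSO library 2 and 150 nM library 3, of unlike number, reached 0.15. Same-numbered libraries correlated in their deviations from the group means at -0.07 to 0.25 in OCI-Ly1 and -0.06 to 0.17 in TMD8, and 7 of 18 and 5 of 18 libraries correlated best with their own number. With a replicate block all 10 genes stayed lower at 500 nM in both lines and 0 were called at 150 nM in OCI-Ly1, where the count of all genes lower went to 48. Depth limits CHORDC1 most, at 418 counts in its shallowest TMD8 library.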
